A study of Homo sapiens with 12 samples.

Results

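The genes described here are EPHA3, other Eph receptors and their ligands, the ephrins, in A375 human melanoma cells. They were chosen by symbol, 10 genes of the 4918 in the expression table. EPHA3 had been selected on its measured fall between cells given SB-3CT with IFNγ and cells given IFNγ, so that comparison is a description for these genes and carries no test. The other 9 symbols were listed with it as receptors and ligands of the same family, with values of the table known. A375 is a single established line of malignant melanoma. RNA was sequenced after 24 h in 4 groups of 3 samples: control cells labelled as treated with none, cells given SB-3CT, an inhibitor of the gelatinases MMP2 and MMP9, cells given the cytokine IFNγ, and cells given SB-3CT and IFNγ together. The protocol speaks of a vehicle, but the labels do not say whether the control cells received it, and they give no dose of either agent. Nothing in the labels says that the 3 samples of a group came from separate cultures, so every p-value measures only the spread between these samples.

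Eph receptors are the largest family of receptor tyrosine kinases. They bind ephrins on the surface of neighbouring cells, so the signal needs cell contact and can run into the receptor-bearing cell and into the ephrin-bearing cell. A-class receptors mainly bind ephrin-A ligands, which are held in the membrane by a lipid anchor, and B-class receptors mainly bind ephrin-B ligands, which cross the membrane, with EPHA4 a known exception that binds both. Binding commonly leads to repulsion, through small GTPases and the actin cytoskeleton, and the receptor complex is then cleaved or taken up by endocytosis. The family is best known for guiding axons and vessels and for keeping cell populations apart, and in melanoma EPHA2 is among the members most studied.

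With SB-3CT the mean level of EPHA3 was 0.540 of that in control cells, and with IFNγ present it was 0.462 of that in IFNγ cells. IFNγ raised the receptor EPHB2 2.83-fold and lowered the ligand EFNA1 to 0.578 of the control level, as ratios of mean FPKM, and neither of them passed the test with SB-3CT alone. EFNA4 stayed between 9.06 and 12.03 FPKM in all 12 samples without scaling between samples, and scaling changed its comparisons with both agents, as given below. FPKM counts sequenced fragments relative to transcript length and library size, so levels of genes can be roughly set beside each other. With both agents the changes still followed transcript length, as given below, which limits the ranking of genes in that group. Changes and standard errors are differences in log2(FPKM + 1), and adding 1 makes them smaller than the true change where a gene is low.

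The promoters of the 3 genes with the widest tested changes are printed to show how they differ in base composition. They are the 250 bases before the RefSeq start of each gene, from RefSeq on build GRCh38.p14, found by exact match in the GRCh37 (hg19) genome and given with its coordinates. Capitals mark each match, on either strand, to GGGCGG, the GC box bound by SP1.
EPHA3 (chr3:89156521-89156770, plus strand): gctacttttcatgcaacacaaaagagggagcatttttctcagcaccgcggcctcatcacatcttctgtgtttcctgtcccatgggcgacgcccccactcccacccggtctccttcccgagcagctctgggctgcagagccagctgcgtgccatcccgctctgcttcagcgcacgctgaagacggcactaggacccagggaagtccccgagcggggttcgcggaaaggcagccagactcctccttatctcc
EPHB2 (chr1:23037081-23037330, plus strand): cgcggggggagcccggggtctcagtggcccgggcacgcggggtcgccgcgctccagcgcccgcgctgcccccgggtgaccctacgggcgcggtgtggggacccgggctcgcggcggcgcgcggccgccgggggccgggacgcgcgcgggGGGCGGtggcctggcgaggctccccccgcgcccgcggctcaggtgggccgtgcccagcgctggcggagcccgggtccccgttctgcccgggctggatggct
EFNA1 (chr1:155100102-155100351, plus strand): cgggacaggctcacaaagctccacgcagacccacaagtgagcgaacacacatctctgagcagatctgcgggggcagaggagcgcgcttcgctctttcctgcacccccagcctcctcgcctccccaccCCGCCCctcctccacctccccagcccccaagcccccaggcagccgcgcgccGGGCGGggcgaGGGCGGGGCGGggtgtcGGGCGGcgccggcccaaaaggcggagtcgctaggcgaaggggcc
The EPHA3 window held no GC box and was 61.2% G and C. The EPHB2 window held 1 GC box at 84.8% G and C, and the EFNA1 window held 5, 2 of which overlap, at 73.2%. Of all 35116 RefSeq promoter windows of this length 42.6% held a GC box, as did 9 of the 10 genes here. A match is only a description of the letters.

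In control cells the levels ran from EPHA2, at 100.2 ± 0.684 FPKM (SD, n = 3), down to EPHA7, at 0.453 ± 0.0299 FPKM. EPHA2 was followed by EPHB4, at 22.1 ± 0.652 FPKM, and EPHA3, at 14.2 ± 0.771 FPKM, and the 3 samples of each did not overlap with those of the next. EFNA4 and EFNA1, the most abundant ligands, at 10.5 ± 1.49 and 10.4 ± 0.830 FPKM, overlapped with each other. EFNB2 had 7.05 ± 0.574 FPKM, EFNB1 4.49 ± 0.151, EPHA4 2.91 ± 0.106 and EPHB2 2.33 ± 0.0796. The order shifted with treatment: EPHA3 stood above EFNA4 and EFNA1 in control and IFNγ cells and below EFNA4 in the other groups, with no overlap between EPHA3 and EFNA4 in any of them. The part of transcript length in the order with both agents was not tested.

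**Figure D1:**
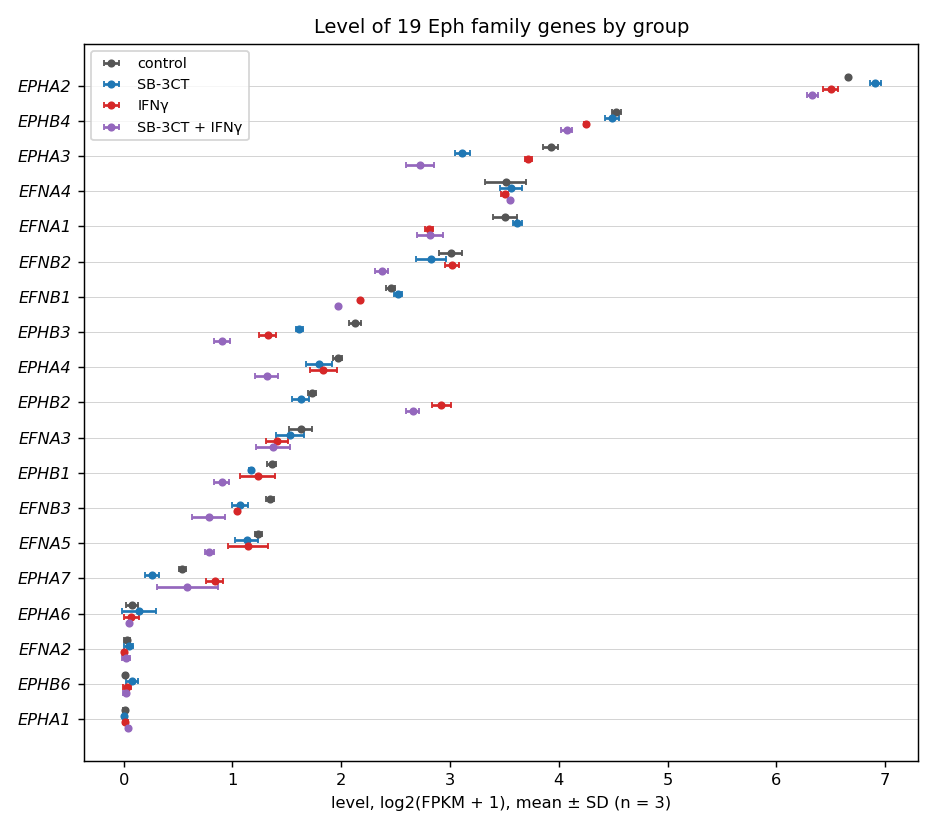
Mean level (log2(FPKM + 1), horizontal axis) of the 19 Eph family genes in the table, in 4 groups, with bars for the SD of 3 samples. EPHA2 is highest in every group, EPHB2 moves up with IFNγ, EPHA3 moves down with SB-3CT, and EPHA6, EFNA2, EPHB6 and EPHA1 lie near 0.

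CXCL10, a chemokine induced by IFNγ, lay between 0 and 0.05 FPKM in the 6 samples without IFNγ and between 78.7 and 122 FPKM in the 6 with it. Of 7 melanocyte-lineage genes, summed at 683 to 814 FPKM, ABCB5 was under 0.1 FPKM in all samples and CAPN3 and DCT were at or below 0.278 FPKM in the group means. Most of that sum was CD63, and the growth factor receptor ERBB3 and the proteoglycan CSPG4 moved with the treatments. ERBB3 had group means of 57.1, 45.5, 43.6 and 30.9 FPKM in control, SB-3CT, IFNγ and SB-3CT plus IFNγ cells, and CSPG4 had 48.5, 41.9, 37.1 and 27.7 FPKM, each lower than control without overlap in every treated group. EDNRB went another way, with 5.83, 4.57, 6.67 and 4.99 FPKM in the same order, higher with IFNγ than in control without overlap. CD63 had 655, 698, 619 and 675 FPKM. The part of these lineage genes in the changes of the Eph family was not tested. Markers of T, B, myeloid and endothelial cells, fibroblasts and keratinocytes summed to at most 1.03 FPKM per list and sample. The table holds no read counts, and the relative depth read from its lowest values ran from 87.1% to 150% of the control mean. Without any scaling between samples, the 3177 genes averaging 1 FPKM or more had a median change of -0.20 between both agents and IFNγ, and of -0.21 between both agents and SB-3CT, while both comparisons against control had medians of -0.03 and -0.04. The log2 median ratio of a sample to the mean of all samples was -0.21 to -0.18 in the 3 SB-3CT plus IFNγ samples and -0.02 to 0.12 in the other 9. Those 3 samples thus stand apart, and results that rest on them are given with values after scaling by median ratios. In bulk RNA, fewer cells that use a gene and less RNA per cell cannot be told apart.

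The comparison of SB-3CT with control shares no sample with the one on which EPHA3 had been selected. EPHA3, a receptor best known for binding ephrin-A5, lies on the plus strand of chromosome 3 (chr3:89156771-89531284, hg19) with 17 exons. It measured 13.8, 13.7 and 15.1 FPKM in control cells and 8.09, 7.64 and 7.27 FPKM in SB-3CT cells. Every SB-3CT sample lay below every control sample. The change was -0.81 (standard error 0.06, limma adjusted p = 0.00149), a ratio of mean FPKM of 0.540, and between -0.88 and -0.72 in all alternatives, each of them past the threshold. Of the other 3176 genes averaging 1 FPKM or more, 8 fell further. By the exact permutation test the groups gave p = 0.1, the smallest that 3 samples against 3 allow.

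EPHA2, the receptor with the highest level, moved the other way. Its control samples had 101, 99.9 and 99.8 FPKM and its SB-3CT samples 119, 115 and 124 FPKM, with no overlap. The rise was 0.25 (standard error 0.04, limma adjusted p = 0.0153). The adjusted p rose to between 0.0575 and 0.0693 without any 1 of the control replicates or without SB-3CT replicate 3. EPHA7, a receptor known from axon guidance, had 0.453, 0.483 and 0.424 FPKM in control and 0.257, 0.173 and 0.162 FPKM with SB-3CT. This fall, at a level near the floor of the table, was -0.28 (standard error 0.04, limma adjusted p = 0.0134), and only the fit without SB-3CT replicate 1 kept it past the threshold among the 6 that left out a library, the highest adjusted p being 0.0672. A fit over all 4 groups lost the call too, at 0.103. Leaving out 1 library also lowered the calls over all genes, from 602 to between 73 and 88. The exception was SB-3CT replicate 1, without which there were 912.

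Of the 10 genes, 1 was called higher (adjusted p under 0.05), against 5.37% of all 4918 genes, and 2 lower, against 6.87%. The other 7 did not pass. Their changes ran from -0.18 for EFNB2 to 0.11 for EFNA1, a ligand of EPHA2, and the median over the 10 genes was -0.07 beside -0.01 over all genes. EPHA4 had a change of -0.17 (standard error 0.09) and EPHB2 one of -0.11 (standard error 0.08), the latter 0.00414 after quantile normalization. The all-gene shares include genes averaging under 1 FPKM. In the fit of only the 3177 genes at or above that level, 366 were called higher and 535 lower, with a median of -0.03. Of the 10 genes 9 were in that fit, with 1 called higher and 1 lower.

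**Figure D2:**
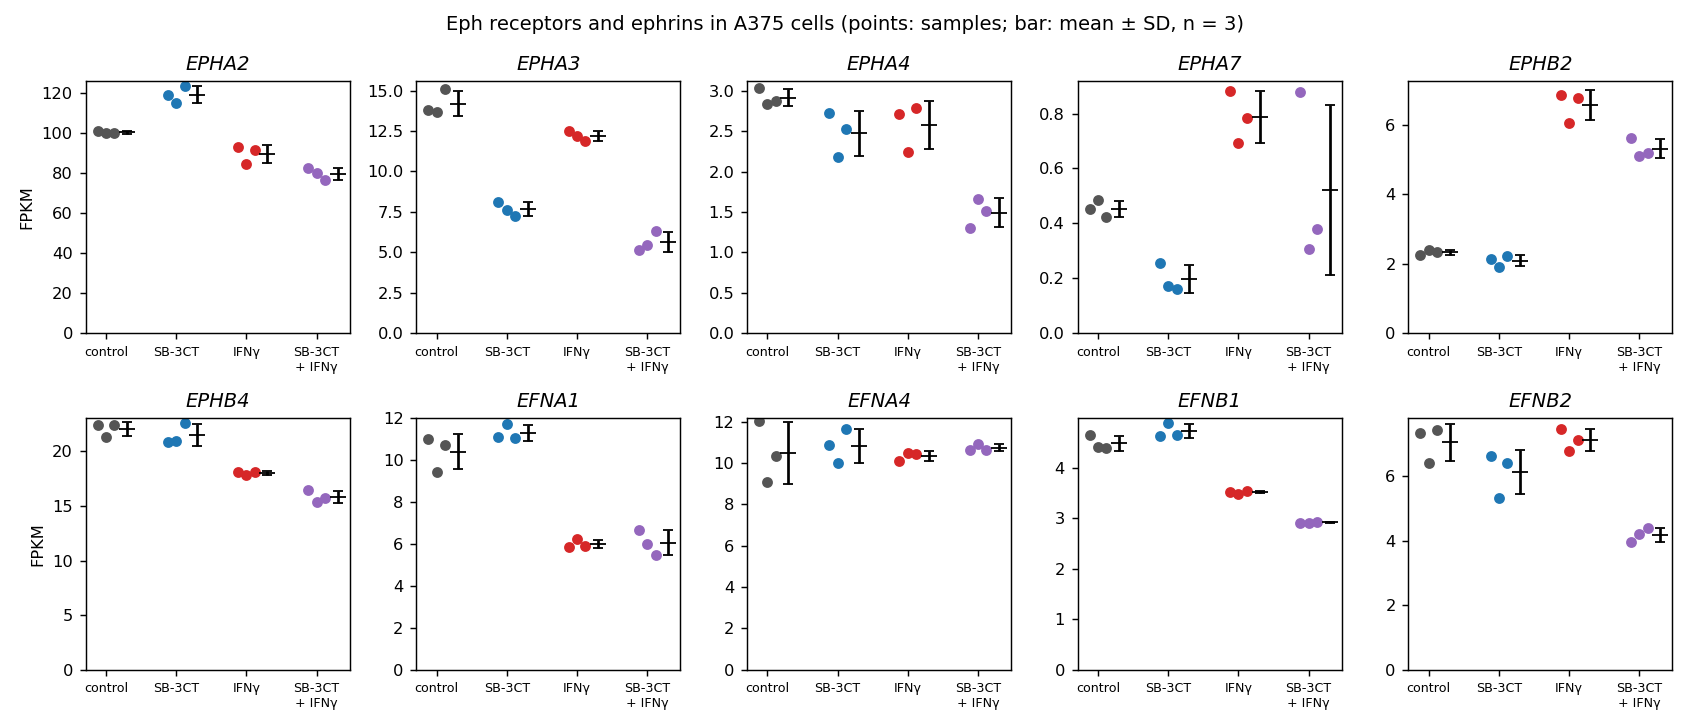
FPKM (vertical axis, from 0) of the 10 genes in each of 12 samples, with the mean and SD of 3 samples beside each group. EPHA3 shows 4 separate levels with the SB-3CT groups lowest, EPHB2 is high and EFNA1 low in both IFNγ groups, and EPHA7 has 1 SB-3CT plus IFNγ sample at 0.879 FPKM above the other two.

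With IFNγ present, EPHA3 had 12.5, 12.2 and 11.9 FPKM in cells without SB-3CT and 5.11, 5.47 and 6.30 FPKM in cells with it. No sample of the second group reached 7 FPKM. The change was -0.996 (standard error 0.08), a ratio of mean FPKM of 0.462, and 7 of the other 3176 genes fell further. It was -0.79 after scaling by median ratios, -0.72 after quantile normalization and -0.66 with the trend by transcript length removed. The difference between the falls with and without IFNγ was -0.19 (standard error 0.10), and it was -0.01 after median-ratio scaling, 0.05 after quantile normalization and 0.07 with the length trend removed.

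EFNB2, the transmembrane ligand known from arteries, had 7.47, 6.76 and 7.11 FPKM with IFNγ and 3.96, 4.19 and 4.40 FPKM with SB-3CT added, without overlap. Its change of -0.65 (standard error 0.08) was -0.45 after median-ratio scaling. EPHA4 had 2.72, 2.24 and 2.78 FPKM with IFNγ and 1.31, 1.66 and 1.52 FPKM with both agents, again without overlap, a change of -0.52 (standard error 0.10) that was -0.37 after median-ratio scaling. In this comparison 5 of the 10 genes were called lower, where 31.5% of all genes were, and 0 higher in limma, where 6.41% were. At an unadjusted p under 0.05 the counts were 7 and 0, with no share of all genes worked out, so they cannot be compared with a background. After median-ratio scaling 3 were lower and 1 higher, where 16.5% and 15.5% of all genes were. After quantile normalization they were 3 and 2 (14.5% and 11.0% of all genes), and with the length trend removed 2 and 0 (13.5% and 7.56%). In the fit of only genes averaging 1 FPKM or more, 5 of 9 were lower and 0 higher, beside 1510 and 348 of 3177. The calls are given as a description, since the selection used this comparison.

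The small changes of several genes took their direction from the scaling. EPHB4 had a change of -0.18 that became 0.05 after median-ratio scaling and 0.01 after quantile normalization. EPHA2 had one of -0.17 that became 0.07 after median-ratio scaling but -0.27 after quantile normalization. EPHB2 had one of -0.26 that became -0.06 and 0.03 in the same order, and EFNB1 one of -0.20 that became -0.02 and 0.08. EFNA1 and EFNA4, at 0.01 and 0.05, became 0.21 and 0.27 after median-ratio scaling, where EFNA4 was the 1 gene called higher.

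**Figure D3:**
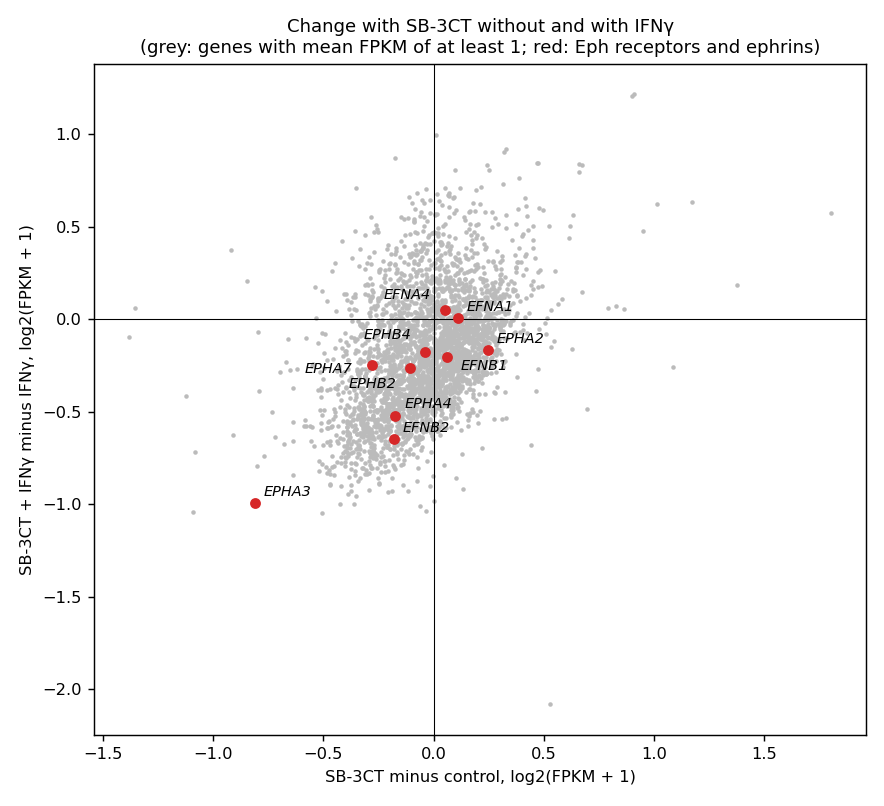
Change with SB-3CT without IFNγ (horizontal axis) and with it (vertical axis), both in log2(FPKM + 1), for 3177 genes averaging 1 FPKM or more (grey) and the 10 Eph family genes (red), with no scaling between samples. EPHA3 lies at -0.81 and -0.996 at the lower left edge, and the grey cloud is shifted below 0 on the vertical axis.

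Transcript length moved with the change in SB-3CT plus IFNγ cells. Across 2902 genes, which are not independent of each other, the change against IFNγ had a Spearman rho with canonical transcript length of -0.60, with a median change of 0.07 in the shortest 25% of transcripts and -0.41 in the longest 25%. For SB-3CT against control rho was -0.23, with medians of 0.04 and -0.11. The canonical EPHA3 transcript has 5712 bases, those of EFNB2 and EPHA4 4995 and 6362, and those of EFNA1 and EFNA4 1552 and 1254. EPHA3 lay below the median line of its length in both comparisons, and with the trend removed its changes were -0.72 against control and -0.66 against IFNγ. EFNB2 then had -0.34 and EPHA4 -0.26 against IFNγ. The part of length in the smaller changes was not tested beyond this.

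**Figure D4:**
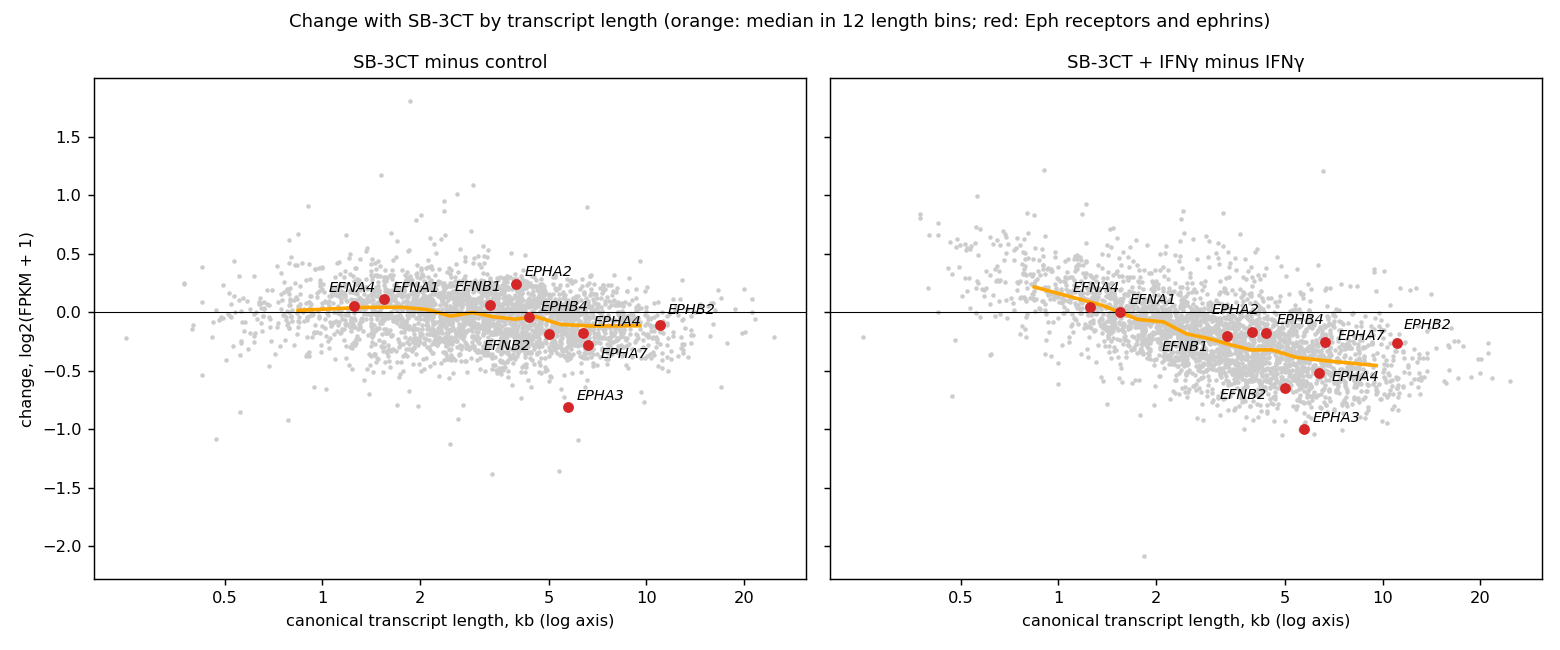
Change in log2(FPKM + 1) (vertical axis) against canonical transcript length in kb (log axis) for SB-3CT minus control and for SB-3CT plus IFNγ minus IFNγ, with the median in 12 bins of length (orange). EPHA3 lies below the orange line in both panels, and EFNA1 and EFNA4 lie close to it.

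IFNγ against control shares the IFNγ samples with the comparison that selected EPHA3. EPHB2, a receptor known for placing cells along the intestinal crypt, had 2.24, 2.40 and 2.35 FPKM in control cells and 6.87, 6.07 and 6.79 FPKM with IFNγ. The groups lay far apart. The rise was 1.19 (standard error 0.07, limma adjusted p = 0.000159) and stayed between 1.12 and 1.46 in all alternatives, none of which lost the call. Among the 3176 other genes at such levels, 69 rose further. The gene lies at chr1:23037332-23247993 (hg19, plus strand).

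EFNA1 (chr1:155100352-155107375, plus strand), which carries a lipid anchor, had 11.0, 9.44 and 10.7 FPKM in control and 5.86, 6.23 and 5.91 FPKM with IFNγ, without overlap. Its fall of -0.70 (standard error 0.07, limma adjusted p = 0.00153) kept its call in every alternative, with changes from -0.78 to -0.66. EPHB4, the main receptor for ephrin-B2 and a marker of veins, had 22.4, 21.3 and 22.4 FPKM in control and 18.1, 17.8 and 18.1 FPKM with IFNγ. The values did not overlap, and the change of -0.28 (standard error 0.04, limma adjusted p = 0.00613) also kept its call in every alternative.

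EFNB1, a transmembrane ligand encoded on the X chromosome, had 4.66, 4.41 and 4.39 FPKM in control and 3.53, 3.49 and 3.54 FPKM with IFNγ. The samples of the groups did not overlap, with a change of -0.28 (standard error 0.06, limma adjusted p = 0.0226). Without any 1 of the control replicates or without IFNγ replicate 3 the adjusted p was 0.0688 to 0.0823. EPHA7 rose to 0.882, 0.693 and 0.785 FPKM, a change of 0.30 (standard error 0.05, limma adjusted p = 0.0107), and only a fit over all 4 groups lost it, at 0.0673. EPHA3 had a change of -0.21 (standard error 0.05, limma adjusted p = 0.0442), a call lost without any 1 of the 6 libraries, at 0.0630 to 0.142, and under median-ratio scaling, at 0.0643. It had been selected on a fall from these IFNγ samples, so its values here and its place in the count below are a description.

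Among the 10 genes 2 were called higher with IFNγ and 4 lower, where 8.46% and 11.0% of all genes were. The remaining 4 were EPHA2 (-0.16, limma adjusted p = 0.0551), EPHA4 (-0.13), EFNA4 (-0.01) and EFNB2 (0.01). EPHA2 did pass after median-ratio scaling (adjusted p = 0.0396), with the length trend removed (0.00584), in a fit over all 4 groups (0.0234) and without IFNγ replicate 1 (0.0488) or 2 (0.0453), while after quantile normalization its change was -0.06 (0.368). EFNA4 and EFNB2 changed sign under several alternatives. The median of the 10 genes was -0.15 beside -0.02 over all genes. In the fit of only genes averaging 1 FPKM or more, 1 of 9 was higher and 4 lower, beside 432 and 613 of 3177, whose median was -0.04.

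With SB-3CT present in both groups, the IFNγ comparison again had EPHB2 higher and EFNA1 lower. This comparison shares the SB-3CT plus IFNγ samples with the one that selected EPHA3. EPHB2 had 2.15, 1.91 and 2.21 FPKM with SB-3CT and 5.63, 5.12 and 5.20 FPKM with IFNγ added, a change of 1.03 (standard error 0.07, limma adjusted p = 0.000331). EFNA1 had 11.1, 11.7 and 11.0 FPKM with SB-3CT and 6.66, 6.01 and 5.48 FPKM with IFNγ added, a change of -0.80 (standard error 0.07, limma adjusted p = 0.000758). After median-ratio scaling the changes were 1.23 and -0.58. Neither gene overlapped between the groups, and both kept their calls in all alternatives.

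EPHA2, which had risen with SB-3CT alone, fell from 119, 115 and 124 FPKM to 82.4, 79.8 and 76.5 FPKM. The groups were far apart, the change was -0.58 (standard error 0.04, limma adjusted p = 0.000427), and it was -0.33 after median-ratio scaling with the call kept. EFNB1 fell from 4.64, 4.90 and 4.66 FPKM to 2.92, 2.92 and 2.94 FPKM without overlap. Its change of -0.55 (standard error 0.06, limma adjusted p = 0.00126) was -0.35 after median-ratio scaling, also with the call kept. EPHA4 changed by -0.48 (standard error 0.09, limma adjusted p = 0.00909), and by -0.32 after median-ratio scaling.

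The calls of EFNB2, EPHB4 and EPHA3 in this comparison depended on the scaling. Their changes of -0.45, -0.42 and -0.39 had limma adjusted p of 0.0096, 0.00174 and 0.0127 without scaling and of 0.0754, 0.0665 and 0.187 with median-ratio scaling. EPHA3 had been selected on a fall in these SB-3CT plus IFNγ samples, so its values here and its place in the count below are a description. EPHA7 had 0.257, 0.173 and 0.162 FPKM with SB-3CT and 0.879, 0.307 and 0.379 FPKM with both agents, and it did not pass (change 0.33, standard error 0.14). EFNA4 had a change of -0.01 without scaling that was 0.22 with median-ratio scaling, where it was called higher (limma adjusted p = 0.0425). In all, 1 gene was called higher and 7 lower, beside 7.85% and 32.7% of all genes, and with median-ratio scaling 2 and 4, beside 13.4% and 11.1%. The median of the 10 was -0.43 beside -0.11 over all genes. In the fit of only genes averaging 1 FPKM or more, 1 of 9 was higher and 7 lower, beside 361 and 1609 of 3177, whose median was -0.21.

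**Figure D5:**
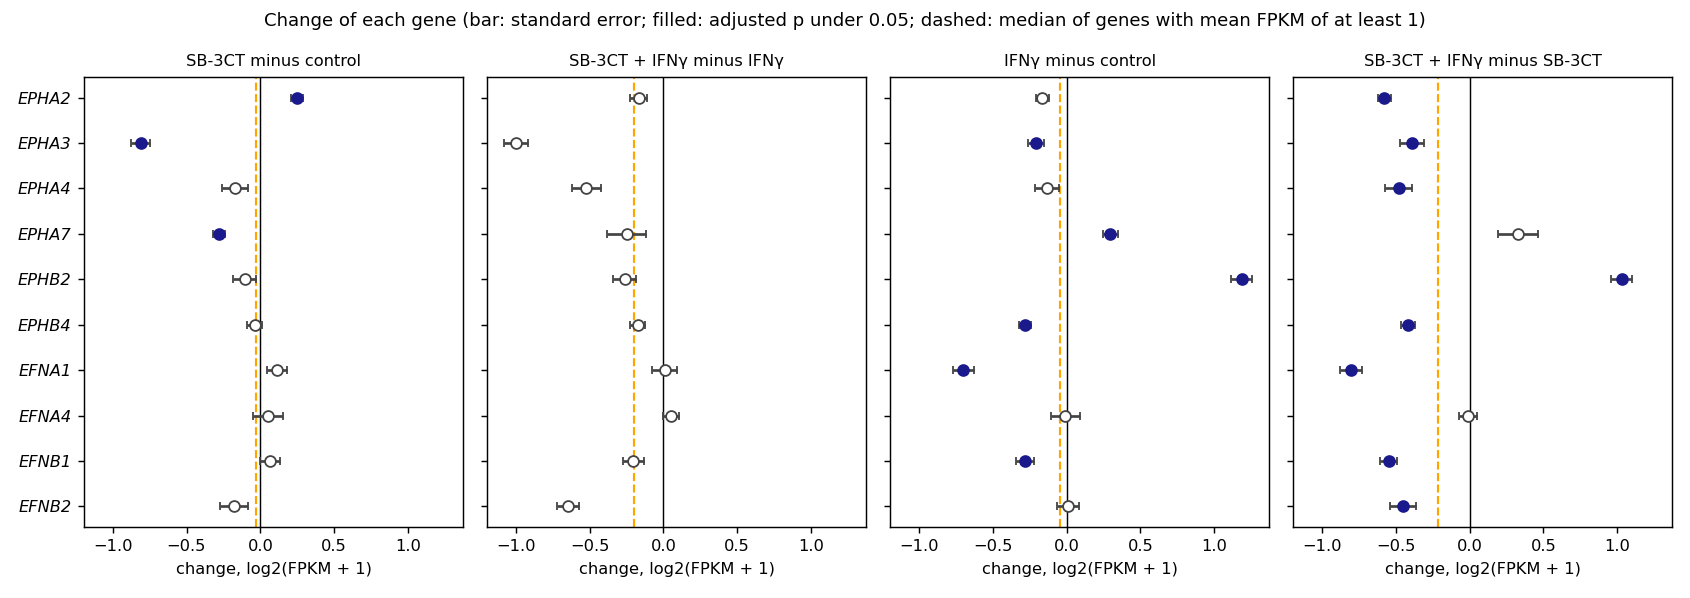
Change of the 10 genes in log2(FPKM + 1) (horizontal axis) in 4 comparisons of 3 against 3 samples, with standard errors, and a dashed line at the median of the 3177 genes averaging 1 FPKM or more. Points are filled where the limma adjusted p was under 0.05, and they are drawn hollow throughout for SB-3CT plus IFNγ minus IFNγ, on which EPHA3 had been selected. The filled EPHA3 points for IFNγ minus control and for SB-3CT plus IFNγ minus SB-3CT are a description, since the selection used samples of both comparisons. EPHA3 lies far left of the dashed line in both SB-3CT panels, and EPHB2 far right and EFNA1 far left in both IFNγ panels. With scaling or removal of the length trend, signs change for EPHB2 and EPHB4 in the first panel, EPHA2, EPHB2, EPHB4, EFNB1 and EFNA4 in the second, EFNA4 and EFNB2 in the third and EFNA4 in the fourth.

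The SB-3CT change with IFNγ minus that without it was fitted over all 12 samples and holds the selecting comparison inside it. It was called lower for 3 of the 10 genes, EPHA2, EFNB2 and EFNB1, and higher for 0 in limma, beside 17.6% and 4.74% of all genes. At an unadjusted p under 0.05 these counts were 4 and 0, with no share of all genes worked out, so they cannot be compared with a background. After median-ratio scaling 1 call was left, that of EPHA2, which was lower, beside 5.59% lower and 7.77% higher of all genes. With the length trend removed 0 were left, beside 5.23% lower and 4.80% higher. Over the 3177 genes averaging 1 FPKM or more, the median of this difference was -0.19. In the fit of only those genes 4 of 9 were called lower and 0 higher, beside 988 and 247 of the 3177.

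Beyond the 10 genes, 9 of the 12 other Eph family genes were in the table. EPHB3, a B-class receptor of the same crypt system as EPHB2, had the widest changes of these. It measured 3.55, 3.32 and 3.23 FPKM in control and 2.01, 2.03 and 2.14 FPKM in SB-3CT cells. IFNγ cells had 1.65, 1.39 and 1.47 FPKM, and cells given both agents 0.945, 0.906 and 0.766 FPKM. The 4 groups did not overlap, and each agent was followed by a lower level with or without the other. The change was -0.80 with IFNγ (standard error 0.07, limma adjusted p = 0.000979), with the call kept in every alternative. With SB-3CT it was -0.51 (standard error 0.07, limma adjusted p = 0.011), where 5 of the 6 fits without 1 library lost the call, at up to 0.0613. It was -0.42 between both agents and IFNγ and -0.71 between both agents and SB-3CT, past the threshold in each alternative, and -0.30 and -0.58 after median-ratio scaling.

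EFNB3 fell from 1.55 ± 0.0668 FPKM (SD, n = 3) to 1.06 ± 0.0207 FPKM with IFNγ (change -0.31, limma adjusted p = 0.0109). With SB-3CT it had 1.10 ± 0.105 FPKM, a call (limma adjusted p = 0.0446) that 5 of the 6 fits without 1 library lost, as did median-ratio scaling, at 0.0546. EPHB1 and EFNA5, at 1.57 ± 0.0744 and 1.36 ± 0.0478 FPKM in control, had 0.868 ± 0.0893 and 0.724 ± 0.0497 FPKM with both agents. They were called lower in both comparisons of that group, and neither was after median-ratio scaling. EFNA3 had 1.60 to 2.09 FPKM in the group means and was not called in any comparison, while EPHA1, EPHA6, EPHB6 and EFNA2 had group means of at most 0.108 FPKM. Of the 9 genes, the counts called lower were 2 with SB-3CT, 2 with IFNγ, and 4 in each comparison of both agents with 1 agent, where 6.87%, 11.0%, 31.5% (against IFNγ) and 32.7% (against SB-3CT) of all genes were. After median-ratio scaling the last 2 counts were 1 and 1, beside 16.5% and 11.1%. Fits of only genes averaging 1 FPKM or more held 5 of the 9. Of these, 2, 2, 4 and 4 were lower in the order above, beside 535, 613, 1510 and 1609 of 3177. In limma 0 of the 9 were called higher in any of these comparisons. At an unadjusted p under 0.05 there was 1, EPHA1 against SB-3CT, with no share of all genes worked out to compare it with.

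Of 43 genes that act downstream of Eph receptors or cleave or internalise them, 42 were in the table. The list was drawn from symbols between A1BG and FAM46B, so partners with later symbols were not analysed here. With SB-3CT 1 was called higher and 5 lower, beside 5.37% and 6.87% of all genes. The sheddases ADAM10, known to cut ephrins, and ADAM17 changed by -0.41 and -0.35 (limma adjusted p = 0.0354 and 0.0214), the Arp2/3 subunit ACTR2 by -0.37, and the clathrin light chain CLTB by 0.33. For each of these 4 genes 5 of the 6 fits without 1 library lost the call, at up to 0.143. In those 5 fits the calls over all genes also fell, from 602 to between 73 and 88. With IFNγ 3 were higher and 5 lower, beside 8.46% and 11.0% of all genes, the widest being the γ-secretase subunit APH1A (0.41), the DOCK partner ELMO2 (0.40) and the clathrin adaptor subunit AP2A1 (0.22) among the rises, and the dynamin DNM1 (-0.58), the Rac activator DOCK4 (-0.44) and the kinase CDK5 (-0.29) among the falls. APH1A kept its call without any 1 library, and the other 5 lost it in 1 to 5 of the 6 such fits. The list medians were -0.01 in both comparisons, beside -0.01 and -0.02 over all genes. Fits of only genes averaging 1 FPKM or more held 40 of the 42. With SB-3CT 1 was then higher and 7 lower, beside 366 and 535 of 3177 genes. With IFNγ 3 were higher and 6 lower, beside 432 and 613.

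Between both agents and IFNγ 4 of the 42 genes were called higher and 24 lower, beside 6.41% and 31.5% of all genes, with a list median of -0.28 beside -0.09. After median-ratio scaling 8 were higher and 16 lower, beside 15.5% and 16.5%. After quantile normalization 1 and 19 were, beside 11.0% and 14.5%, and with the length trend removed 3 and 8, beside 7.56% and 13.5%. In the fit of only genes averaging 1 FPKM or more, 4 of 40 listed genes were higher and 27 lower, beside 348 and 1510 of 3177. The list median was then -0.30 beside -0.20. ACTR2 (-0.89), the clathrin heavy chain CLTC (-0.73) and the Rac activator DOCK1 (-0.73) had the widest called falls, at -0.66, -0.50 and -0.54 after median-ratio scaling. The place of ACTR2 rested on 1 library, as it had 30.0, 51.1 and 51.4 FPKM with both agents. Without the low replicate 1 of that group its change was -0.64, beside -0.73 for CLTC and -0.67 for DOCK1. CLTB (0.49), the Arp2/3 subunit ARPC3 (0.37) and the adaptor subunit AP2S1 (0.33) had the widest called rises, at 0.73, 0.61 and 0.57 after median-ratio scaling. CLTB had 150, 106 and 151 FPKM with IFNγ and 192, 180 and 194 FPKM with both agents. Without the low IFNγ replicate 2 its change was 0.32, and ARPC3 then had 0.41 and AP2S1 0.35. The call of CLTB was lost in 4 other fits without 1 library, at up to 0.0972, and with the length trend removed, at 0.11. ACTR2 lost its call without IFNγ replicate 1 (0.0829) or 3 (0.0636) and with the length trend removed (0.0724), and AP2S1 with that trend removed (0.248). Between both agents and SB-3CT 3 were higher and 23 lower, beside 7.85% and 32.7% of all genes (6 and 9 after median-ratio scaling, beside 13.4% and 11.1%), led by DNM1 (-0.83), DOCK4 (-0.68) and the kinase ABL2 (-0.66) among the falls and by ARPC3 (0.36), APH1A (0.33) and AP2S1 (0.20) among the rises. Each was past an adjusted p of 0.05 in limma. After median-ratio scaling the falls were -0.62, -0.52 and -0.45 and the rises 0.61, 0.58 and 0.45, all past the threshold. AP2S1 had -0.02 with the length trend removed, and 4 of the 6 fits without 1 library lost its call. In the fit of only genes averaging 1 FPKM or more, 3 of 40 listed genes were higher in this comparison and 26 lower, beside 361 and 1609 of 3177.

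The genes whose pattern over the 12 samples was most like that of EPHA3, among 3176 others averaging 1 FPKM or more, were CSTF1 (Pearson r = 0.98 on the log2 scale), ATXN10 (0.97), DIXDC1 (0.97), ADAM17 (0.97) and ADAM9 (0.96). The 12 points fall into 4 treatment groups and share library effects, so the likeness is a description with no test. ADAM17 had 10.6 FPKM in control, 8.11 in SB-3CT cells, 10.6 in IFNγ cells and 6.998 with both agents. Within the family EFNB2 was nearest to EPHA3, with r = 0.89 at rank 198, and EFNA4 was farthest, with r = -0.26.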

How the data were processed

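RNA from A375 cells was sequenced as paired-end Illumina libraries in 12 samples, 3 in each of 4 groups given by the labels. The submitters' processing notes name HISAT2 2.0.5, StringTie 1.3.3 and hg19. The values deposited by the authors are on the log2 scale, as log2(FPKM + 1), their maximum being 12.2, and were turned back to FPKM where levels are given. The planned tests assumed FPKM, and no further logarithm was needed. Symbols from A1BG to FAM46B, 4918 genes, were analysed here, and 0 columns of sample values were unused.

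The comparisons used limma 3.58.1 under R 4.3.3 (lmFit, eBayes with trend, two-sided, unpaired, 3 + 3 samples per fit), with Benjamini-Hochberg adjustment over all 4918 genes and a threshold of 0.05. The fits of SB-3CT against control and of the difference with and without IFNγ were tried on simulated data. Those were independent normal values without a shift between samples or a trend by length, so they do not cover these features of the data. The genes and lists were chosen with earlier results of these data known, and the lists were written by hand. All 10 genes, the other family genes, the 3 widest called rises and falls of the signalling list and the 5 genes most like EPHA3 are named. Alternatives were 0.1 as pseudocount, only genes averaging 1 FPKM or more, median-ratio scaling, quantile normalization, no variance trend, all groups in 1 fit, a replicate block and leaving out each library. A fit without the trend by transcript length was added after seeing the data. Gene positions and canonical transcripts come from GENCODE on GRCh37. Samples with the same replicate number had deviations with correlations of -0.39 to 0.17, which cannot settle whether the numbers pair samples, and the labels do not say. The main fits were unpaired, with the replicate block as an alternative. The depth in reads is unknown, so no counting interval is given.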

Additional observations from a re-analysis of the deposited data

Results flagged for a closer look

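The change with SB-3CT differed between cells with and without IFNγ for 3 of the 10 genes by the test of that difference over 12 samples. All 3 were called lower, where 17.6% of all genes were called lower and 4.74% higher. Since the difference holds the comparison on which EPHA3 had been selected, and its median over genes averaging 1 FPKM or more was -0.19, the 3 results are values only. EPHA2 had a difference of -0.41 (limma adjusted p = 0.00448): all 3 SB-3CT samples lay above all 3 control samples, and all 3 SB-3CT plus IFNγ samples lay below all 3 IFNγ samples. The difference was -0.21 (adjusted p = 0.0344) after median-ratio scaling, -0.45 (0.0029) after quantile normalization and -0.16 (0.11) with the length trend removed. EFNB2 had a difference of -0.47 (limma adjusted p = 0.0181), which was -0.30 (0.0765), -0.23 (0.115) and -0.23 (0.143) in the same order. EFNB1 had a difference of -0.27 (limma adjusted p = 0.0365), which was -0.11 (0.422), -0.07 (0.711) and -0.10 (0.508), and 9 of 12 fits without 1 library lost the call.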

How the results depend on the processing

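The fall of EPHA3 with SB-3CT, the rise of EPHB2 and the falls of EFNA1 and EPHB4 with IFNγ, and the changes of EPHB2, EFNA1, EFNB1, EPHA2 and EPHA4 between both agents and SB-3CT kept direction and call in every alternative. Signs turned for small changes. Against control with SB-3CT, EFNA4 was -0.039 without control replicate 2, EPHB2 0.00414 under quantile normalization and EPHB4 0.0301 with the length trend removed. With IFNγ, EFNA4 was 0.0302 (median-ratio scaling), 0.00875 (length trend removed) and -0.099 to 0.0879 with 1 library left out, and EFNB2 was -0.0214 (quantile), -0.0133 (length) and -0.0472 to 0.0472 with 1 library left out. Between both agents and SB-3CT, EFNA4 was 0.22 (median ratio), 0.15 (quantile) and -0.0623 to 0.0385 with 1 library left out. Between both agents and IFNγ, EPHB2 was 0.0285 (quantile) and 0.10 (length) and EPHB4 0.0513 (median ratio), 0.014 (quantile) and 0.14 (length). Of the 10 genes, the 5 called there became 2 (length trend removed), 3 (replicate block) and 3 to 7 with 1 library left out. The 3 called with SB-3CT alone became 1 to 3 with 1 library left out, and the 3 differences became 1 (median ratio), 1 (quantile) and 0 (length). Of the other 9 family genes, the 4 called between both agents and IFNγ became 1 under each of the 3 scalings, 2 with the replicate block and 1 to 3 with 1 library left out. The 2 with SB-3CT became 1 under the 3 scalings, a pseudocount of 0.1 and the replicate block, and 0 to 2 with 1 library left out, and the 4 between both agents and SB-3CT became 1 under the 3 scalings. Of the signalling list, 28 became 24 (median ratio), 20 (quantile) and 11 (length) between both agents and IFNγ. Between both agents and SB-3CT 26 became 15 (median ratio), 23 (quantile) and 21 (length). With SB-3CT 6 became 2 (replicate block) and 0 to 10 (1 library left out), and with IFNγ 8 became 5 (replicate block) and 1 to 9 (1 library left out). Over all genes, 602 calls with SB-3CT became 259 (replicate block), 912 without SB-3CT replicate 1 and 73 to 88 without another library. They became 682 (median ratio), 666 (quantile), 757 (length) and 621 (pseudocount of 0.1). With IFNγ 958 became 775 (replicate block) and 562 to 982 (1 library left out). Between both agents and IFNγ 1862 became 1574 (median ratio), 1256 (quantile), 1035 (length), 1609 (replicate block) and 1230 to 1977 (1 library left out). Between both agents and SB-3CT 1994 became 1204 (median ratio), 1357 (quantile) and 1377 (length). The 1099 differences called over all genes became 657 (median ratio), 640 (quantile) and 493 (length). In the replicate block, EPHA3 (0.0955) and EFNB1 (0.0641) with IFNγ and EPHA3 (0.0566) between both agents and SB-3CT also had an adjusted p over the threshold. A fit without 1 library has fewer samples. Otherwise the cause was not tested. Without read counts, precision at levels such as that of EPHA7 is not known.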
